A study of Saccharomyces cerevisiae with 2 samples.

Results

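The strains described here lack 1 copy of a gene for the histone chaperones CAF-1, HIR, ASF1 or FACT. They were picked by gene symbol from a list of complexes, drawn up with earlier results of these data known, and all 10 listed genes were found among the 5219 heterozygous deletion strains of Saccharomyces cerevisiae with a ratio on both arrays. CAF-1 was represented by CAC2, RLF2 and MSI1, HIR by HIR1, HIR2, HIR3 and HPC2, FACT by SPT16 and POB3, and ASF1 by itself.

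Both compared pools came from the same 5896 haploid-convertible heterozygous diploid knockout strains, each of which keeps an intact copy of its deleted gene. The control pool had received a ura3D::URA3 cassette and the other pool a tub1D::URA3 cassette, which removes 1 copy of the main alpha-tubulin gene TUB1, so that in the second pool each strain lacks 1 copy of TUB1 as well. After 2 days at 30 °C on SC-Ura medium, the 2 DNA tags that identify each strain were amplified, labelled with Cy5 (control pool) and Cy3 (tub1 pool), and hybridised together on 2 arrays, numbered as experiments 1 and 2. The series addresses synthetic haploinsufficiency with TUB1, that is, which single-copy losses alter growth when TUB1 is also down to a single copy.

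Histone chaperones escort histones and place them on or take them off DNA. CAF-1 assembles nucleosomes from histones H3 and H4 on newly replicated DNA, while HIR does so outside replication and also holds down transcription of most core histone genes. ASF1 binds H3 and H4, hands them to both complexes and is needed for the acetylation of new H3, and FACT loosens and rebuilds nucleosomes as polymerases pass. In budding yeast CAF-1 and HIR also help to keep centromeric chromatin and chromosome segregation in order.

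Values are log2 ratios with the deposited sign, after centring each tag set of each array on its median. The direction was not stated, and the TUB1 deletion strain, the natural check, held a value in 0 of 4 tag measurements. Since the control pool carried the red dye and scanner programs usually divide red by green, a positive value probably stands for a strain depleted from the tub1 pool and a negative value for one enriched there. This reading could not be checked. Each strain has a first and a second tag, and which of them is the upstream tag is not stated. In 7 of the 10 chaperone strains each tag was spotted 6 times on an array, and in HPC2, SPT16 and POB3 it was spotted once. The largest positive value of the series, for the minor alpha-tubulin gene TUB3, was 4.22 ± 0.32 (SD, n = 2 arrays), with a first tag at 4.25 and 4.57 and a second tag at 3.74 and 4.33 on arrays 1 and 2. Over all strains the test of limma against 0 called 0 positive and 0 negative strains at an adjusted p under 0.05, while 476 positive and 612 negative strains had an unadjusted p under 0.05. The lowest adjusted p that any strain reached in this test was 0.229. The labels do not say whether the experiments were separate transformations, so these p-values measure the spread between 2 arrays, which may be technical.

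None of the chaperone strains came near TUB3. The CAC2 and MSI1 strains had small positive values in every tag, and the 4 HIR strains had means between -0.78 and -0.03. RLF2, ASF1 and SPT16 had the lowest means of the members, at -1.66, -1.63 and -1.36. Each of those negative means came from a single tag, while the other tag of the same strain lay between -0.25 and 0.38 on both arrays. No chaperone strain passed limma's test over all strains (0 of 10, against 0% of all strains in each direction). Without adjustment, 3 negative members had a p under 0.05 (11.7% of all strains), namely RLF2, ASF1 and SPT16, and 0 positive members did (9.12% of all strains).

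**Figure D1:**
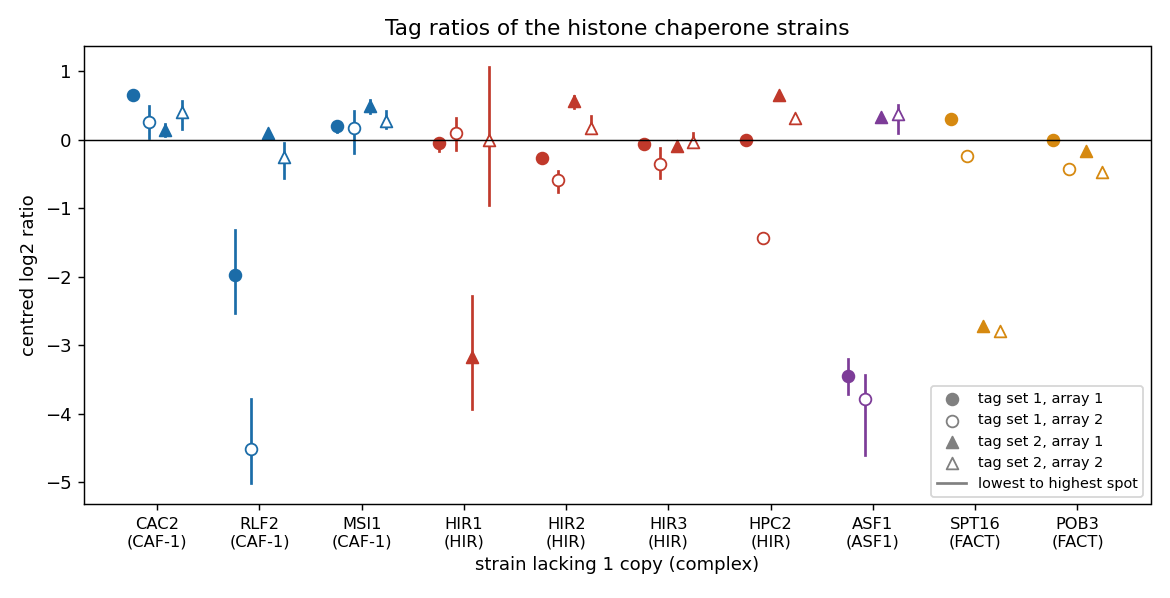
Centred log2 ratio (vertical axis) of each tag of the 10 chaperone strains on each array; circles are the first tag, triangles the second, filled symbols array 1 and open symbols array 2. Symbols are means over the spots of a tag and vertical lines run from the lowest to the highest of 6 spots where a tag had 6. The symbols at or under -1 are the first tags of RLF2 and ASF1 and the second tag of SPT16 on both arrays, the second tag of HIR1 on array 1 and the first tag of HPC2 on array 2.

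In CAF-1, the strain of CAC2, a subunit with WD repeats, had first-tag values of 0.65 on array 1 and 0.25 on array 2 and second-tag values of 0.14 and 0.40. Its mean was 0.36 ± 0.05 (SD, n = 2 arrays), a 1.28-fold ratio, and it ranked 861 of 5219 from the positive end. MSI1, the other WD-repeat subunit, which also acts in signalling through RAS and cyclic AMP, had first-tag values of 0.20 and 0.17 and second-tag values of 0.50 and 0.28. The MSI1 mean was 0.29 ± 0.09 and its rank 1105. All 4 tag values of both strains were positive, a pattern found in 2 of 10 members and in 20.4% of all strains. By limma the adjusted p was 0.273 for CAC2 and 0.323 for MSI1, so neither value could be told from 0 with these arrays.

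RLF2, the large subunit of CAF-1 that binds the replication clamp, differed from its partners. Its first tag stood at -1.98 on array 1 and -4.52 on array 2, while its second tag stood at 0.09 and -0.25. The means were -0.94 on array 1 and -2.39 on array 2, together -1.66 ± 1.02, with an adjusted p of 0.238 by limma. The first tag was low in every spot, from -2.52 to -1.31 on array 1 and from -5.01 to -3.79 on array 2. The second tag lay between 0.05 and 0.13 in the spots of array 1 and between -0.56 and -0.05 in those of array 2. The spots of both tags thus did not overlap on either array, although both tags report on 1 strain. At such low values the deposited linear ratios, which move in steps of 0.01, are coarse.

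The ASF1 strain showed the same split with more even arrays. Its first tag stood at -3.45 and -3.78 and its second tag at 0.34 and 0.38 on arrays 1 and 2. The mean was -1.63 ± 0.10, a ratio 3.09-fold below 1, at rank 5040 of 5219, with an adjusted p of 0.229 by limma. The 6 spots of the first tag had an SD of 0.18 on array 1 and 0.46 on array 2, and those of the second tag 0.02 and 0.16, far less than the gap between the tags. Read from the first tag ASF1 was strongly negative, and read from the second tag it was weakly positive, close to CAC2 and MSI1.

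In FACT, the strain of SPT16, the large essential subunit, had single-spot values of 0.31 and -0.24 for the first tag and -2.72 and -2.79 for the second on arrays 1 and 2. Its mean was -1.36 ± 0.22, at rank 4904, with an adjusted p of 0.229 by limma. POB3, the essential partner of SPT16, had first-tag values of 0.00 and -0.43 and second-tag values of -0.17 and -0.47. The POB3 mean was -0.27 ± 0.26, with an adjusted p of 0.403. Both FACT strains had negative means on both arrays, and they differed mainly through the second tag of SPT16.

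In the HIR complex, HIR1, a WD-repeat subunit related to vertebrate HIRA, had first-tag values of -0.05 and 0.10 and second-tag values of -3.17 on array 1 and 0.00 on array 2. Its mean of -0.78 ± 1.18 (adjusted p 0.414 by limma) therefore rested on 1 tag of 1 array. The spots of that tag spread widely on both arrays, from -3.94 to -2.28 on array 1 and from -0.96 to 1.07 on array 2, where their SD was 0.73. HIR2, the second WD-repeat subunit, had a first tag at -0.26 and -0.59 and a second tag at 0.56 and 0.18, and its mean was -0.03 ± 0.25. The tags of HIR2 thus pointed in opposite directions on both arrays, and they cancelled in the mean. HIR3, the large scaffold subunit, had values of -0.06 and -0.36 for the first tag and -0.09 and -0.03 for the second, with a mean of -0.14 ± 0.08. It was the 1 of 10 members with 4 negative tag values, against 20.1% of all strains. HPC2, a subunit of the ubinuclein family, had a first tag at 0.00 and -1.43 and a second tag at 0.66 and 0.32, with a mean of -0.11 ± 0.62. The adjusted p by limma was 0.921 for HIR2, 0.554 for HIR3 and 0.821 for HPC2.

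Counted together, 2 of 10 members were positive on both arrays (32.7% of all strains) and 5 of 10 were negative on both (41.7% of all strains). At least 2-fold negative means on both arrays were found for 2 of 10, ASF1 and SPT16, against 3.74% of all strains, and RLF2 lay just outside with -0.94 on array 1. At least 2-fold positive means on both arrays were found for 0 of 10, against 0.728%. The median of the members was -0.20 (-0.08 on array 1 and -0.33 on array 2), and the median of all strains was -0.09.

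Set side by side, the complexes were ordered by their medians in the same way on both arrays, with CAF-1 highest, then HIR, FACT and ASF1. On arrays 1 and 2 the median of CAF-1 was 0.35 and 0.22, HIR had 0.04 and -0.20, FACT had -0.64 and -0.98, and ASF1 had -1.55 and -1.70. The median of CAF-1 exceeded that of HIR by 0.37 ± 0.08 and that of FACT by 1.10 ± 0.15, and the median of HIR exceeded that of FACT by 0.73 ± 0.07 (SD, n = 2 arrays). These differences were not tested, since an exact sign permutation of 2 arrays cannot give a p below 0.5, and subunits are not replicates of a complex. The order depended on which tag was read. With the first tag alone the median was 0.18 for CAF-1, -0.09 for FACT and -0.32 for HIR, so that HIR was then below FACT. With the second tag alone it was 0.27 for CAF-1, 0.15 for HIR and -1.54 for FACT, while ASF1 was 0.36. By means over the strains of a complex, which RLF2 pulls down in CAF-1, CAF-1 lost its first place, at -0.34 against -0.27 for HIR. That mean was -0.07 for CAF-1 and -0.30 for HIR on array 1, and -0.61 and -0.23 on array 2, so the order of these complexes by means differed between arrays.

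**Figure D2:**
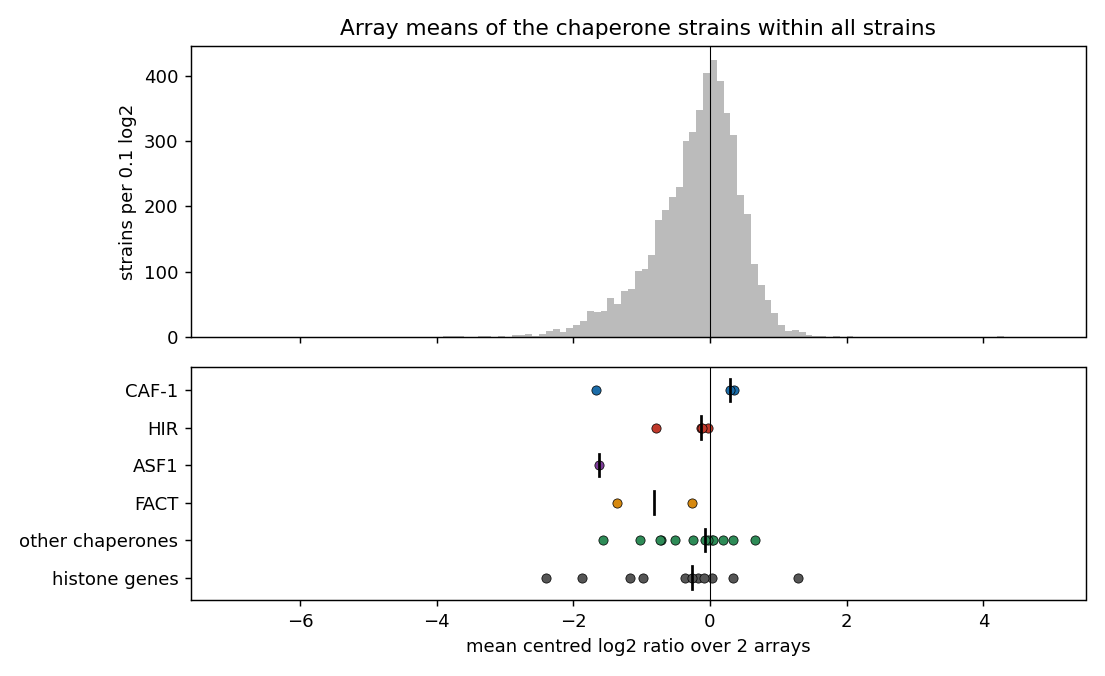
The upper panel shows the number of strains per 0.1 log2 for the mean ratio of all 5219 strains, and the lower panel the mean of each strain (points) and the median (vertical bar) of each complex, of 13 other histone chaperone strains and of 11 histone gene strains, over 2 arrays. CAC2 and MSI1 lie to the right of 0, while RLF2, ASF1 and SPT16 lie in the left tail, between -1.66 and -1.36.

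The disagreement of the tags was itself measured. In RLF2, ASF1 and SPT16 the tags were at least 4-fold apart in the same order on both arrays, which is 3 of 10 members against 2.47% of all 5191 strains with all 4 tag values. The first tag lay below the second by 3.97 ± 0.27 in ASF1 and by 3.17 ± 1.55 in RLF2, and in SPT16 it lay above the second by 2.79 ± 0.34 (log2, SD, n = 2 arrays). A test of the tag difference with limma over those strains, chosen after the values were seen, called 0 strains at an adjusted p under 0.05, and 523 had an unadjusted p under 0.05. Its adjusted p was 0.444 for ASF1, 0.480 for RLF2 and 0.444 for SPT16. Exactly 1 tag was at least 2-fold negative on both arrays in 3 of 10 members and in 6.74% of strains, and exactly 1 tag was 2-fold positive in 0 of 10 members and in 1.27%. Both tags were at least 2-fold negative on both arrays in 0 of 10 members and in 0.597% of strains, and 2-fold positive in 0 of 10 and in 0.405%. Among the 193 strains with 4 tag values and means at least 2-fold negative on both arrays, 103 had exactly 1 such tag and 31 had both. A single low tag was therefore more frequent than a pair of low tags among these negative strains.

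**Figure D3:**
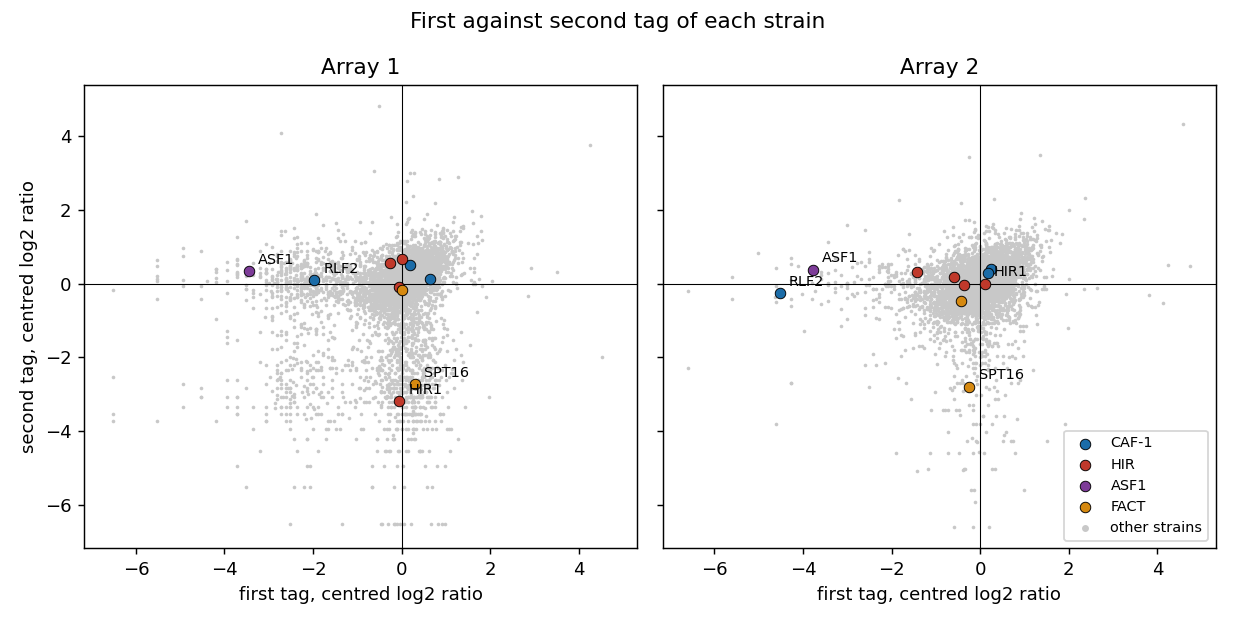
First tag (horizontal axis) against second tag (vertical axis) of each strain, as centred log2 ratios, on array 1 (left) and array 2 (right); grey points are other strains and coloured points the 10 chaperone strains. ASF1 and RLF2 lie far to the left at a second tag near 0 on both arrays, SPT16 lies far down at a first tag near 0 on both, and HIR1 moves from -3.17 on array 1 to 0.00 on array 2.

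Neighbouring genes gave a second measure of the same kind, chosen after the values were seen. For each member the 20 nearest measured strains in gene order were taken, 10 on each side. ASF1, on chromosome X, had a lower mean than all 20 of its neighbours, whose median was -0.19. RLF2, on chromosome XVI, was likewise below all 20 neighbours, whose median was also -0.19. At the first tag, 3 of 20 neighbours of ASF1 were at or under -1 on array 1 and 1 was on array 2. For RLF2 the counts were 2 and 0, and over all strains the shares were 17.0% and 7.79%.

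HIR1 and SPT16 stood among neighbours with low tags, mostly on array 1. Of the neighbours of HIR1, on chromosome II, 9 of 19 measured second tags were at or under -1 on array 1 and 3 of 20 were on array 2, against 19.2% and 6.45% of all strains. The neighbour LDB7, a subunit of the RSC remodelling complex, had a second tag at -3.52 on array 1 and 0.32 on array 2, much as HIR1 did. The 3 that were low on array 2 were low on both arrays, unlike HIR1. They were SLA1, next to HIR1, at -3.66 and -5.04, PEP1 at -3.06 and -2.79, and PDR3 at -3.35 and -1.24. The H2A gene HTA2 and the H2B gene HTB2 lie in the same stretch, and the first tag read -3.35 on array 1 and -0.51 on array 2 for HTA2, and -5.52 and 0.14 for HTB2. The second tag read -3.72 and -0.47 for HTB2, and for HTA2 it had a value on array 2 only, -0.26. For SPT16, on chromosome VII, 10 of 20 neighbours had a second tag at or under -1 on array 1 and 2 did on array 2. The 2 that were low again on array 2 were CHC1, the clathrin heavy chain gene next to SPT16, at -2.19, and EMP24, which acts in vesicle transport, at -2.14. The mean of SPT16 was above 5 of its 20 neighbours and that of HIR1 above 10. On arrays 1 and 2 SPT16 had -1.20 and -1.52, and the median of its neighbours was -1.40 and -0.05. The first tag was at or under -1 in 10 of these 20 neighbours on array 1 and in 3 on array 2 (17.0% and 7.79% of all strains). The first tag of SPT16 stood at 0.31 and -0.24. Low tags were not limited to the surroundings of HIR1 and SPT16. Around POB3, 9 of 19 measured second tags were at or under -1 on array 1 and 0 of 20 were on array 2. Around HPC2, 7 of 20 first tags were so low on array 1 and 5 of 19 on array 2. The part that a regional feature plays in the values of these members was not tested.

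**Figure D4:**
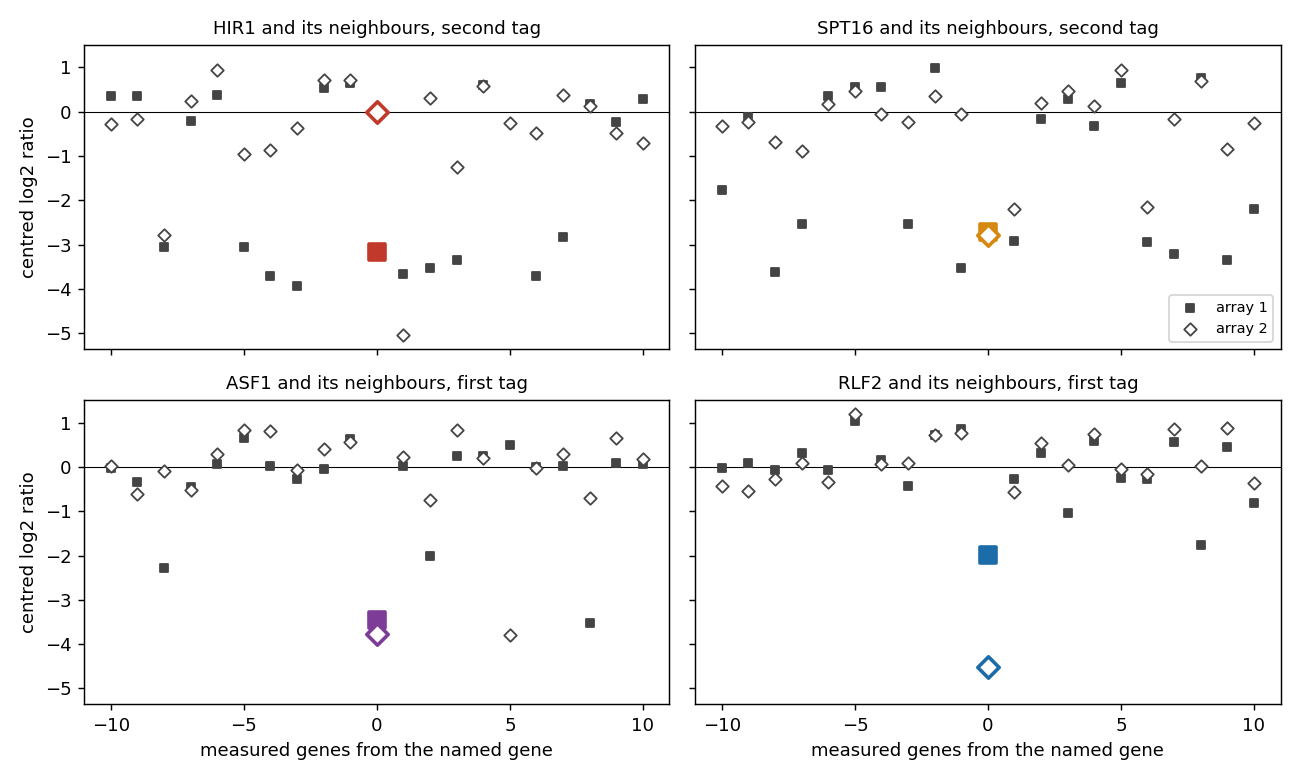
Centred log2 ratio of 1 tag for HIR1, SPT16, ASF1 and RLF2 (large coloured symbols) and for their 10 nearest measured strains on each side in gene order (small symbols); filled squares are array 1 and open diamonds array 2. Around HIR1 and SPT16 many second tags are low on array 1 and fewer on array 2, while the second tag of SPT16 itself is low on both. The first tags of ASF1 and RLF2 are low on both arrays among neighbours mostly near 0.

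CAC2 and POB3 lie on chromosome XIII at 16 genes from TUB1, on opposite sides, and strains of that region had ratios of their own. Of the 10 strains at 11 to 20 genes from TUB1 on the side of CAC2, 10 were positive on both arrays, CAC2 among them, with a median of 0.42. CAC2, at 0.36, was therefore not high for its surroundings, and its mean exceeded the median of its 20 neighbours by 0.05. On the side of POB3, strains at 1 to 10 genes from TUB1 lay around a median of -1.28 (-1.68 on array 1, -0.72 on array 2), and those at 11 to 20 genes, which include POB3, had -0.31 (-0.08 and -0.29). The POB3 mean of -0.27, from -0.08 and -0.45, lay close to that median. Farther out on this side the median was -0.88 at 21 to 30 genes (-1.47 and -0.04 on arrays 1 and 2). At 31 to 40 genes it was -1.36 (-1.58 and -0.15). On the side of CAC2 it was -0.11 at 1 to 10 genes, 0.12 at 21 to 30 and 0.06 at 31 to 40. The medians thus did not change steadily with distance from TUB1, and the size of all these values depended on the array. The 20 nearest neighbours of POB3 had a median of -0.60, which POB3 exceeded by 0.34, and 15 of the 20 were lower. MSI1, on chromosome II, had neighbours with a median of -0.16 and exceeded it by 0.44, and 17 of its 20 neighbours were lower.

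**Figure D5:**
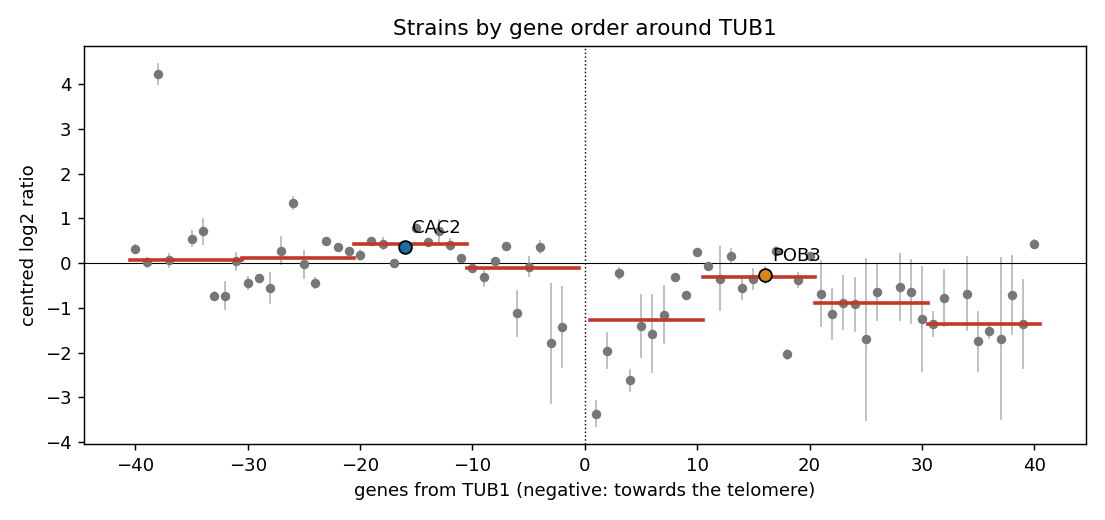
Centred log2 ratio of strains within 40 genes of TUB1 on chromosome XIII, by the number of genes from TUB1; grey points are means, grey lines join both arrays, and red bars are medians of bins of 10 genes. CAC2 lies in a bin with a median of 0.42 and POB3 in one with a median of -0.31, and the highest point is TUB3.

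HIR2, HIR3 and HPC2 did not stand out from their surroundings. HIR2, on chromosome XV, had a mean above 6 of its 20 neighbours, whose median was 0.18. HIR3, on chromosome X, was above 13 of 20, with a neighbour median of -0.20, and HPC2, on chromosome II, was above 14 of 20, with a neighbour median of -0.26.

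Of 14 other histone chaperone and nucleosome assembly genes, 13 were measured, and HIF1 was not analysed here. Their median was -0.07 (-0.54 on array 1 and -0.05 on array 2). On both arrays 3 were positive and 7 negative (32.7% and 41.7% of all strains), and 0 of 13 passed limma's test over all strains (0% in each direction). By limma 5 had an unadjusted p under 0.05. They were YTA7 with a positive value (9.12% of all strains) and VPS75, SPT6, NHP6B and SPN1 with negative values (11.7%). The highest was YTA7, an ATPase that acts on histone gene chromatin, with a first tag at 0.35 and 0.38, a second tag at 0.81 and 1.09 and a mean of 0.65 ± 0.11. The lowest was SPT6, an H3-H4 chaperone that travels with RNA polymerase II, with a first tag at -1.52 and -1.51 and a second tag at -1.48 and -1.74. Its mean was -1.56 ± 0.09, and unlike RLF2, ASF1 and SPT16 it was low in both tags on both arrays. The adjusted p by limma was 0.229 for YTA7 and for SPT6.

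The 11 histone gene strains centred at a median of -0.26 (-0.44 and -0.08 on the single arrays). On both arrays 2 were positive and 6 negative (32.7% and 41.7% of all strains), and 0 passed limma's test over all strains (0% in each direction). The 1 with an unadjusted p under 0.05 by limma was HTB1, with a positive value (9.12% of all strains). This H2B gene was highest, with a first tag at 1.16 and 1.23 and a second tag at 1.15 and 1.61. Its mean was 1.29 ± 0.19, at rank 21 of 5219, with an adjusted p of 0.229. HTB2, the other H2B gene, was lowest at -2.39 ± 3.15, with a first tag at -5.52 and 0.14 and a second tag at -3.72 and -0.47, so both tags were low on array 1 and neither was on array 2.

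By closeness over the 4 tag values, the strains most like CAC2, the highest member, were DCG1, SKI7 and AVT3, at Euclidean distances of 0.11, 0.14 and 0.18 log2. Those most like RLF2, the lowest member, were FBP1, YPL068C and PAC11, at distances of 0.44, 0.48 and 0.68. Each of the latter had a first tag at or under -1.49 on both arrays and a second tag between -0.41 and 0.13.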

How the data were processed

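Each deposited value is the log2 ratio of a spot, from images analysed by the authors with GenePix 5.1, per the labels. The sources used here do not give the authors' background correction, normalization or ratio direction. Spot intensities were not used, so signal over background is unknown. Of 40008 values, 2 stood at a filled-in number and were treated as missing. Probes were named from the platform annotation (18794 of 22575 had 1 gene symbol, 3781 none). Gene order came from the start positions in the R64 gene table, and distances are given in genes. Symbols whose tags could not be assigned to 1 strain (105) were left out.

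Spots of a tag were averaged, each tag set of each array was centred on its median (shifts of 0.12 and 0.04), and both tags were averaged. The 5219 strains on both arrays were fitted against 0 with limma 3.58.1 in R 4.3.3 (lmFit, eBayes, two-sided, Benjamini-Hochberg over all strains, threshold 0.05). The fit was also run on simulated data with independent normal noise of a common spread and without separate tags. That run does not bear on strains whose tags disagree. Tables used Python 3.11.15 and pandas 2.3.3, plots matplotlib 3.10.9. Alternatives covered centring, quantile normalization, spot medians, single tags, the smallest ratios, a filter on complete tags, robust eBayes, tags as blocks and single arrays. The members and lists were chosen with earlier results of these data known. All members were named, as were the highest and lowest of each further list and the 3 strains nearest to the highest and lowest member by tag values. Other strains were named after their values were seen. The number of arrays limits the precision.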

Additional observations from a re-analysis of the deposited data

How the results depend on the processing

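With the second tag alone ASF1 turned from -1.63 to 0.36, HIR2 to 0.37 and HPC2 to 0.49, and with the first tag alone HIR1 turned to 0.022 and SPT16 to 0.033. With the first tag alone the median was 0.18 for CAF-1, -0.32 for HIR, -0.091 for FACT and -0.52 for histone genes, and the differences were 0.45 for CAF-1 minus HIR, 0.27 for CAF-1 minus FACT and -0.18 for HIR minus FACT. With the second tag alone the medians were 0.15 for HIR, -1.54 for FACT and 0.067 for histone genes, the differences 0.046, 1.74 and 1.70, and 1 member in place of 2 was at least 2-fold from 0 on both arrays. Quantile normalization also left 1, with HIR minus FACT at 0.81.

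Leaving out 1 array moved the median of CAF-1 between 0.22 and 0.35, HIR between -0.20 and 0.04, FACT between -0.98 and -0.64, other chaperones between -0.54 and -0.049 and histone genes between -0.44 and -0.08. The differences ranged from 0.31 to 0.42 (CAF-1 minus HIR), 0.99 to 1.21 (CAF-1 minus FACT) and 0.68 to 0.78 (HIR minus FACT), ASF1 from -1.70 to -1.55, and the 2-fold members numbered 3 on either array. HIR1 ranged from -1.61 to 0.049, HIR2 from -0.21 to 0.15, HPC2 from -0.56 to 0.33 and POB3 from -0.45 to -0.083. Less the median of their neighbours, a setting added after seeing the data, HIR3 stood at 0.067, HPC2 at 0.14 and POB3 at 0.34. Of 90 member values under the alternatives that change the value of at least some members, 79 kept their direction and 11 turned. Some of these 90 could move little or not at all. Spot medians cannot change HPC2, SPT16 and POB3, whose tags were spotted once, and leaving out the centring shifted all members alike.

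Keeping both tags in the fit gave 516 calls over all strains with the array as a random block and 3 with the tag set as the block, and 0 members in either. The estimated correlation within a block was -0.289 for the array and 0.18 for the tag set. A negative correlation lowers the standard error of a mean. Across the alternatives the lowest adjusted p of a member by limma was 0.0931, for CAC2, from the fit with the array as block. The cause of these changes was not tested. No paired analysis was possible because both arrays belong to 1 group.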
